A study of Mus musculus with 4 samples.

Results

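Cxcl16 and Cxcr6, a chemokine and its receptor, are described here in single leukocytes of healthy mouse liver, by cell class, liver zone and library. They are 2 of the 32285 genes in the deposited matrices, and both were detected in every library. CD45+ cells came from livers of PA-GFP C57BL/6 mice after photoactivation, which switches on a fluorescent protein in an illuminated zone. Cells of the portal vein zone (PV, where blood from the gut enters) and of the central vein zone (CV, where blood leaves) made 2 libraries each, and all 4 libraries share genotype and photoactivation. The labels do not state whether each library is from its own mouse, and the spread behind every p-value is that among libraries, which may be technical.

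CXCL16 is an unusual chemokine. It is made as a transmembrane protein on the cell surface, where it can hold cells that carry CXCR6 and act as a scavenger receptor, and proteases of the ADAM family release it as a soluble attractant. CXCR6 is its receptor, a G protein-coupled receptor of activated and tissue-resident T cells, natural killer T (NKT) cells and type 1 innate lymphoid cells (ILC1). In mouse liver the pair is known for the patrolling and survival of NKT cells in the sinusoids.

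The Cxcl16 gene (ENSMUSG00000018920) lies on chromosome 11 from 70453983 to 70459984 on the minus strand of GRCm38, with 5 exons, and overlaps Zmynd15 on the other strand by 552 bases. The Cxcr6 gene (ENSMUSG00000048521) lies on chromosome 9 from 123806475 to 123811760 on the plus strand, with 2 exons, and its whole length of 5286 bases lies inside Fyco1, which runs the other way. Whether reads were assigned by strand is not given in the sources used here. Fyco1 had 32.3 and 32.1 UMIs per 1000000 UMIs of the same cells (CPM) in the T cells of the PV libraries, against 33.2 and 21.3 CPM in those of the CV libraries, and Zmynd15 had 92.2 and 29.6 CPM in PV macrophages, against 22.8 and 16.1 CPM in CV macrophages. A part of reads shared between each pair was not tested.

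The promoter of Cxcr6 is shown because the receptor was found in T cells and innate lymphoid cells, where RUNX, T-box and ETS factors are known to act. It is the RefSeq window of GRCm38.p6 at chr9:123806227-123806526, plus strand, 250 bases before to 50 bases after the RefSeq start at 123806477, which differs from the start of the annotation given above, and the 2 stretches in capitals are the matches to the motifs searched.
Cxcr6: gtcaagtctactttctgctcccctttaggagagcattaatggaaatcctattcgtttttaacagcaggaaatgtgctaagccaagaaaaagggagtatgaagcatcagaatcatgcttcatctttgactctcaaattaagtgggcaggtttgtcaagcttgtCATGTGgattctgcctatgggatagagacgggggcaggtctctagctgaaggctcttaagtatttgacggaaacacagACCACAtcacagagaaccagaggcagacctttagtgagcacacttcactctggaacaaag
Both strands were searched. The RUNX motif TGTGGT matched 1 time, on the minus strand (capitals ACCACA), 10 bases before the RefSeq start, and 16.8% of the 32851 promoters of the table hold it. The E-box CANNTG matched 1 time (capitals CATGTG), 88 bases before the RefSeq start, and 72.3% of promoters hold it. The T-box core GGTGTG, the AP-1 motif TGANTCA, the ETS core GGAAGT and the TATA box TATAAA, held by 19.0%, 7.81%, 23.8% and 13.6% of promoters, had 0 matches in this window. These matches describe letters only.

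Cells were kept with at least 200 genes and at most 10% mitochondrial UMIs. Of 1939 distinct barcodes, 282 were found in more than 1 library, and such a barcode was counted as a cell of 1 library where that library had 70% or more of its UMIs, and otherwise left out. This left 333 and 512 cells in the PV libraries and 372 and 376 in the CV libraries, 1593 in all, with medians of 5369 to 6318 UMIs per cell. Each cell was placed in 1 of 14 classes by the share of each class's marker genes that it expressed, with at least 3 detected and neither Cxcl16 nor Cxcr6 among the markers, and 22 cells stayed ungated. The gate used these markers: Clec4f was detected in 99.5% of Kupffer cells, C1qa in 92.6% of other macrophages, Cd3e in 95.8% of T cells and Ncr1 in 90.6% of natural killer (NK) cells and ILC1. Against the CD45+ label, 16 cells matched sinusoidal endothelium and 2 matched hepatocytes. The makeup differed between libraries: macrophages were 19 and 139 cells (5.71% and 27.1%) in the PV libraries, against 67 and 50 cells (18.0% and 13.3%) in the CV libraries, and T cells were 203 and 203, against 169 and 160.

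Cxcl16 came from macrophages and conventional dendritic cells (cDC). Macrophages, 17.3% of the cells, held 61.4% of the 1429 Cxcl16 UMIs, and cDC, 8.0% of the cells, held 31.9%. The order of these sources differed between libraries. In PV replicate 1 macrophages held 34.7% of the Cxcl16 UMIs and cDC 63.9%, whereas macrophages held 60.6% in PV replicate 2 and 68.5% and 80.6% in the CV libraries.

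By class, mature dendritic cells, which migrate and carry antigen, had the highest level, with 823 and 1041 CPM in the PV libraries and 1086 CPM in CV replicate 1. They were 1, 5 and 3 cells, CV replicate 2 had none, and all 9 had a Cxcl16 UMI at a median depth of 20075 UMIs. Macrophages outside the Kupffer cell gate came next, with 472 and 751 CPM in the PV libraries and 559 and 539 CPM in the CV libraries. Kupffer cells, the resident macrophages of the sinusoids, had 384 and 314 CPM in the PV libraries, the first from 4 cells, and 363 and 299 CPM in the CV libraries. The 3 classes did not overlap in level when taken over all libraries. Of the other dendritic cells, cDC2 had 33.6 and 232 CPM in the PV libraries against 64.5 and 279 CPM in the CV libraries, these from 2 and 3 cells. The cDC1, which cross-present antigen, had 128 and 133 CPM in the PV libraries against 123 and 61.5 CPM in the CV libraries. The ranges of cDC2 and cDC1 overlapped.

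Among the 24 cells of the monocyte gate, Cxcl16 was split. The 13 cells with Ace, a marker of patrolling monocytes, had 0 Cxcl16 UMIs, and the 11 without Ace had 59, of which 49 came from PV replicate 2. That split was chosen after the values were seen, and the median depth was 5248 UMIs with Ace and 11457 without. Sinusoidal endothelial cells, a source of CXCL16 known from mouse liver, had 206 CPM in the 13 cells of PV replicate 2 and 0 UMIs in the 3 cells of CV replicate 2. Plasmacytoid dendritic cells (33 cells), NK cells and ILC1 (106 cells) and plasma cells (9 cells) had 0 Cxcl16 UMIs; at 2000 UMIs a cell, the depth used for shares, this allows up to 9.09%, 3.06% and 37.5% of cells with a UMI. Neutrophils (88 cells) had 1 Cxcl16 UMI and B cells (156 cells) had 3.

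**Figure D1:**
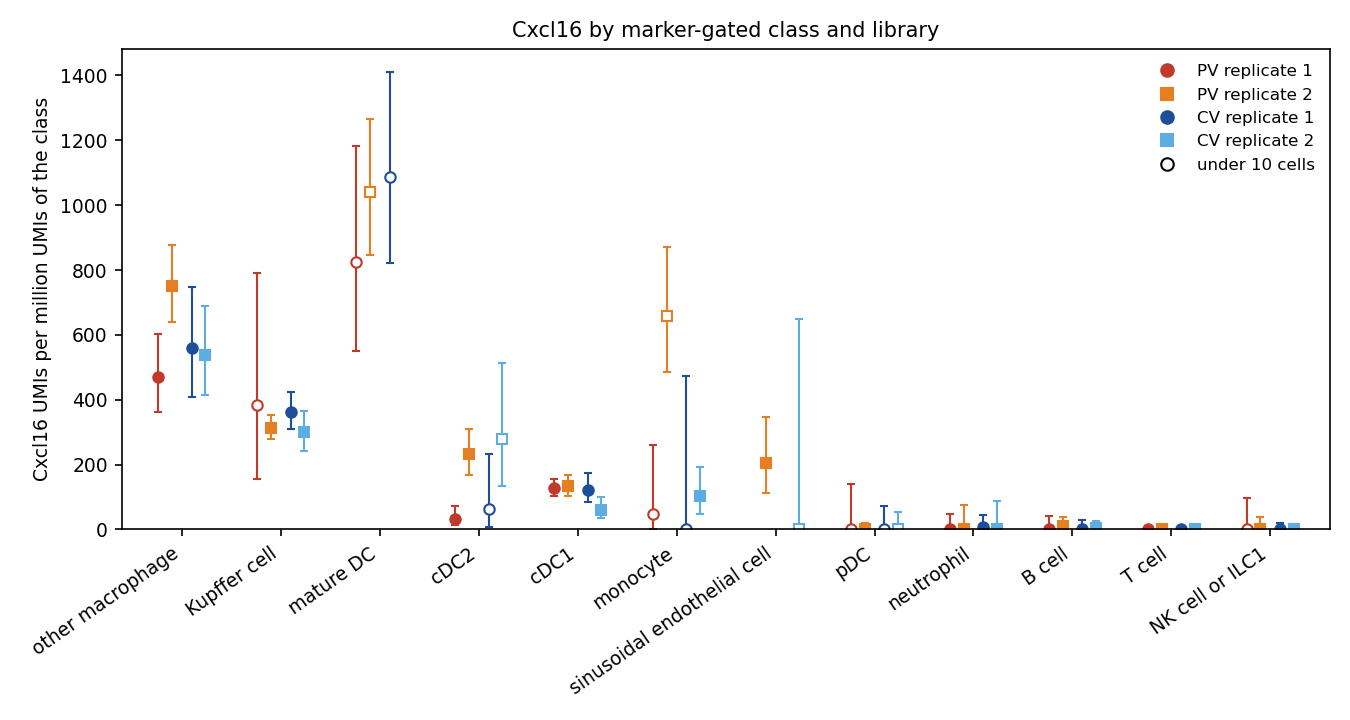
Cxcl16 CPM of the class (y axis) in 12 marker-gated classes (x axis), 1 point per library with its exact 95% Poisson interval, which covers counting error only; open symbols have under 10 cells, and a class without cells in a library has no point. Mature dendritic cells, other macrophages and Kupffer cells stand highest, from 299 to 1086 CPM, and T cells lie at 0 to 1.95 CPM.

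Macrophages as a whole had 461 and 396 CPM of Cxcl16 in the PV libraries and 393 and 364 CPM in the CV libraries. T cells had 0 and 2 Cxcl16 UMIs in the PV libraries and 2 and 1 in the CV libraries, that is 5 UMIs in 735 cells. The pooled ratio of macrophages over T cells was 385, with a counting interval of 164 to 1188. Sums per library and class were compared with edgeR's quasi-likelihood test with the library as a block. The fitted log2 fold change was 8.31 ± 0.34 (SE; adjusted p = 4.7e-09), and 26.2% of the 8156 genes tested were higher in macrophages at an adjusted p under 0.05. The cDC had 136 and 267 CPM in the PV libraries and 262 and 87.9 CPM in the CV libraries. Over T cells the pooled ratio of cDC was 187 (79.6 to 579), and the edgeR log2 fold change was 7.61 ± 0.30 (adjusted p = 1.24e-10), with 24.5% of 7533 genes higher in cDC. Both fitted values rest on T cell sums near 0.

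Macrophages against cDC is a closer comparison. Macrophages were higher in all 4 libraries, by a log2 fold change of 0.88 ± 0.29 (edgeR adjusted p = 0.0409), where 20.1% of 5329 genes were higher in macrophages. The call was lost with DESeq2 (adjusted p = 0.0618), without the library block (adjusted p = 0.0602 in edgeR) and without PV replicate 1 (log2 fold change 0.62, edgeR adjusted p = 0.141) or CV replicate 2 (0.64, edgeR adjusted p = 0.174). The cDC level rests in part on the 9 mature dendritic cells among 127 cDC, which held 185 of the 456 cDC UMIs of Cxcl16. Without them, in an alternative chosen after seeing the data, cDC had 109 and 160 CPM in the PV libraries and 116 and 87.9 CPM in the CV libraries, and macrophages were higher by 1.47 ± 0.22 (edgeR adjusted p = 0.000544). Within macrophages, the cells outside the Kupffer gate were higher than Kupffer cells in all 4 libraries, by a log2 fold change of 1.06 ± 0.24 (edgeR adjusted p = 0.00636), where 7.88% of 2615 genes were higher. This comparison was added after the data were seen, the Kupffer sum of PV replicate 1 holds 4 cells, and the call was lost without PV replicate 2 (0.85, edgeR adjusted p = 0.139) and with no filter on low counts (0.93, edgeR adjusted p = 0.141).

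Per cell, each cell was thinned at random to 2000 UMIs and shallower cells were left out, so that shares of cells with a UMI compare at 1 depth. Cxcl16 was then detected in 78.2% of other macrophages (43 of 55 cells, 95% Wilson interval 65.6 to 87.1%) and in 48.1% of Kupffer cells (88 of 183, 41.0 to 55.3%). It was detected in 28.1% of cDC2 (9 of 32) and 20.9% of cDC1 (18 of 86). The background, read from T cells, was 0.140% (1 of 716, up to 0.787%), and B cells had 2.03% (3 of 148). Before thinning 208 of 275 macrophages, 93 of 127 cDC and 5 of 735 T cells had a Cxcl16 UMI, at median depths of 7086, 20075 and 6162 UMIs.

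Among the genes most like Cxcl16 over 31 sums of 11 classes, by Pearson correlation of log2(CPM + 20), were Tbxas1 (r = 0.94), which encodes thromboxane synthase, then Gatm, Aif1, Tmem205, Mt1, P2ry6 and Hexa (r = 0.90). Aif1 encodes the macrophage protein IBA1 and Hexa a lysosomal hexosaminidase. The sums share libraries and classes, so that r mainly follows the classes.

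The proteases that shed CXCL16 were read in the same cells. Adam10, the protease of constitutive shedding, had 98.8 and 228 CPM in macrophages of the PV libraries and 156 and 219 CPM in those of the CV libraries, whereas T cells had 60.1 and 45.2 CPM in the PV and 80.1 and 72.7 CPM in the CV libraries. Adam17, the protease of stimulated shedding, had 152 and 135 CPM in PV macrophages and 188 and 200 CPM in CV macrophages, whereas T cells stayed between 21.1 and 27.3 CPM. Neither gene overlapped between macrophages and T cells. The share of all genes without overlap was not counted, and 26.2% of all genes tested were called higher in macrophages. The edgeR log2 fold changes of macrophages over T cells were 1.34 ± 0.23 for Adam10 (adjusted p = 0.000259) and 2.61 ± 0.18 for Adam17 (adjusted p = 8.73e-08). Rhbdf2, the partner that takes ADAM17 to the surface, was higher by 3.77 ± 0.35 (adjusted p = 1.14e-06). T cells had only 4 and 4 UMIs of it in the PV and 3 and 3 in the CV libraries. Rhbdf2 thus passed the count filter only through macrophages. Of the 11 listed genes of shedding and its control, 5 were tested against T cells and 4 were higher, where 26.2% of all genes were, with a median log2 fold change of 1.34 against -0.11 over all genes tested. The fourth, Tspan14, a tetraspanin partner of ADAM10 (0.60 ± 0.21, edgeR adjusted p = 0.0252), lost its call with DESeq2 and in 3 of the 4 fits that leave out 1 library. Tspan5, another such tetraspanin, did not pass (-1.59 ± 0.70, edgeR adjusted p = 0.0697). It entered the test only through T cells. The count of 4 among the 5 tested thus depends in part on the filter.

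The same 4 genes, of 5 tested, were higher in macrophages than in cDC, where 20.1% of all 5329 genes tested were. Log2 fold changes were 1.51 ± 0.27 for Adam10, 1.93 ± 0.24 for Adam17, 2.53 ± 0.54 for Rhbdf2 and 2.13 ± 0.33 for Tspan14 (edgeR adjusted p from 0.000384 to 0.00624). The fifth, the tetraspanin Tspan33, was lower in macrophages (-3.04 ± 0.70, edgeR adjusted p = 0.00886), as were 18.9% of all genes tested. Macrophages had 11 and 7 Tspan33 UMIs in the PV and 1 and 1 in the CV libraries. Tspan33 could thus pass the count filter only with the cDC sums. Between the macrophage gates, Adam10 was lower outside the Kupffer gate (-1.17 ± 0.31, edgeR adjusted p = 0.0161), the reverse of Cxcl16, and Adam17 did not pass (-0.33 ± 0.30, edgeR adjusted p = 0.543).

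Several other chemokine and cytokine genes were higher in macrophages than in T cells as well. All 10 tested members of the 17 listed myeloid chemokines were higher, where 26.2% of all genes tested were. Among them was Ccl6, which had 731 and 703 CPM in PV macrophages and 1091 and 1025 CPM in CV macrophages. T cells had 2 and 11 Ccl6 UMIs in the PV and 3 and 3 in the CV libraries. The count of members carries no support, since the list is of myeloid genes. Those with few UMIs in T cells can pass the count filter only through the macrophage sums. Of the 13 listed cytokines and receptors that act on Cxcr6-bearing lymphocytes, 8 were tested and 6 were higher. The median log2 fold change of the 8 was 1.93, against -0.11 over all genes tested. This count, too, depends in part on the filter. Il15, a survival cytokine of NKT and NK cells, was among the higher members, with 13.2 and 46.6 CPM in PV macrophages and 47.5 and 27.6 CPM in CV macrophages, whereas T cells had 2.20 and 0.729 CPM in the PV and 0 and 4.44 CPM in the CV libraries (edgeR adjusted p = 5.47e-05). Cd1d1, which presents lipids to NKT cells, was higher by 2.22 ± 0.32 (edgeR adjusted p = 5.9e-05). Il18, an activator of innate-like lymphocytes, had 39.5 and 66.3 CPM in PV macrophages and 96.9 and 59.9 CPM in CV macrophages. It had 0 UMIs in T cells, and Il15 had 3 and 1 there in the PV and 0 and 5 in the CV libraries. Both genes passed the count filter only through macrophages. Against cDC, neither Cd1d1 (-0.21 ± 0.27, edgeR adjusted p = 0.76) nor Il18 (0.011 ± 0.23, edgeR adjusted p = 0.979) passed. Between the macrophage gates, Cxcl9, a ligand of Cxcr3, was higher outside the Kupffer gate by 6.49 ± 0.52 (edgeR adjusted p = 2.97e-07). All macrophages together had 11 and 234 Cxcl9 UMIs in the PV and 8 and 46 in the CV libraries. Of 9 tested chemokines of the list, 5 were higher and 1 was lower outside that gate, where 7.88% of all genes were higher and 7.57% lower. Members low in Kupffer cells, such as Cxcl9, can pass the count filter only through the other macrophages. This count carries no support.

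Cxcr6 was found mostly in T cells. T cells, 46.1% of the cells, held 92.7% of the 3706 Cxcr6 UMIs. They had 809 and 654 CPM in the PV libraries (1103 and 897 UMIs) and 680 and 656 CPM in the CV libraries (696 and 739 UMIs). Before thinning 621 of 735 T cells (84.5%) had a Cxcr6 UMI, and at 2000 UMIs 67.0% did (480 of 716, 63.5 to 70.4%). The background, read from B cells, was 0.676% (1 of 148), at a median depth of 3662 UMIs before thinning against 6162 in T cells.

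NK cells and ILC1 had less. Their level was 498 and 410 CPM in the PV libraries (8 and 18 cells) and 273 and 289 CPM in the CV libraries (37 and 43 cells), below the T cells of every library. The edgeR log2 fold change of NK cells and ILC1 over T cells was -1.25 ± 0.15 (adjusted p = 3.39e-07), where 5.94% of 6130 genes were lower, and it held in all 12 alternatives run. At 2000 UMIs 44.9% of them had a Cxcr6 UMI (44 of 98), and before thinning 62 of 106. Of the 20 listed innate-like genes, all tested, 10 were higher and 2 were lower in NK cells and ILC1 than in T cells, where 4.5% of all genes were higher; Klrb1c, Klra9 and Tyrobp of that list are among the markers that gated the class. Xcl1, a chemokine of NK cells and ILC1, was higher by a log2 fold change of 1.98 ± 0.12 (edgeR adjusted p = 2.78e-13), and Zbtb16, the transcription factor of NKT cells, was lower by -2.26 ± 0.52 (edgeR adjusted p = 0.00283). Of the 12 recirculation genes 11 were tested and 7 were lower, and of 15 tested residency genes 5 were higher, among them Itga1, the collagen-binding integrin of ILC1 (1.43 ± 0.25, edgeR adjusted p = 9.68e-05). The Cxcr6 UMIs were nearly all on the ILC1 side of the class. The 86 cells that expressed a larger share of the ILC1 genes than of the NK genes had 725 and 572 CPM in the PV libraries (5 and 13 cells) and 279 and 344 CPM in the CV libraries (35 and 33 cells). The 20 cells on the NK side had 0 UMIs in both PV libraries and CV replicate 1, and 69.1 CPM in CV replicate 2, from 3 UMIs in 1 cell. At 2000 UMIs, 44 of 81 ILC1-leaning cells and 0 of 17 NK-leaning cells had a UMI, and 0 of 17 allows up to 17.6%. The class also held T cell transcripts. Over sums of at least 10 cells, Cd3g averaged 1138 CPM in NK cells and ILC1 and 1368 CPM in T cells. Trbc2 averaged 631 and 1614 CPM. Whether T cells placed in this gate hold a part of its Cxcr6 UMIs was not tested.

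The T cells were uneven as well. In T cells with 5 or more of 9 genes of naive-like cells, Cxcr6 had 173 and 111 CPM in the PV libraries (10 and 32 cells) and 0 and 52.2 CPM in the CV libraries (8 and 28 cells). T cells with 0 to 2 of these genes had 895 and 759 CPM in the PV libraries and 755 and 850 CPM in the CV libraries, so that the subsets did not overlap in any library. Those with 3 or 4 genes had 706 and 734 CPM in the PV libraries and 584 and 788 CPM in the CV libraries, close to the cells with fewest. The naive-like genes were counted without thinning, at median depths of 6694 UMIs (5 or more), 7039 (3 or 4) and 5911 (0 to 2).

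The level was close in T cells with 1 or 2 and with 3 or more NKT-type genes, and lower in those with 0. T cells with 3 or more of 10 such genes had 788 CPM over all libraries (240 cells), those with 1 or 2 had 776 CPM (370 cells) and those with 0 had 267 CPM (125 cells). By library the cells with 0 had 523 and 132 CPM in the PV libraries and 225 and 121 CPM in the CV libraries, and 148 CPM over the others without PV replicate 1. Leaving out cells with 5 or more naive-like genes, T cells without any NKT gene had 520 CPM (60 cells). T cells with Trdc, the constant gene of the delta receptor chain, had 454 and 482 CPM in the PV libraries and 568 and 670 CPM in the CV libraries, from 3 to 9 cells each. T cells with Cd4 had 665 CPM (188 cells) and those with Cd8a or Cd8b1 had 221 CPM (54 cells). The Cd8 cells had 613 and 250 CPM in the PV libraries and 544 and 63.5 CPM in the CV libraries, so that the pooled value was 402 CPM without CV replicate 2 and 143 CPM without PV replicate 1. Of the Cd8 cells, the 36 with 5 or more naive-like genes had 58.0 CPM and the 18 others had 721 CPM. The first of these values rests on few UMIs, 18 in all with 11 from PV replicate 1, and was 25.5 CPM without that library and 111 CPM without CV replicate 2. These cuts describe ranges of expression within 1 class and carry no test.

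**Figure D2:**
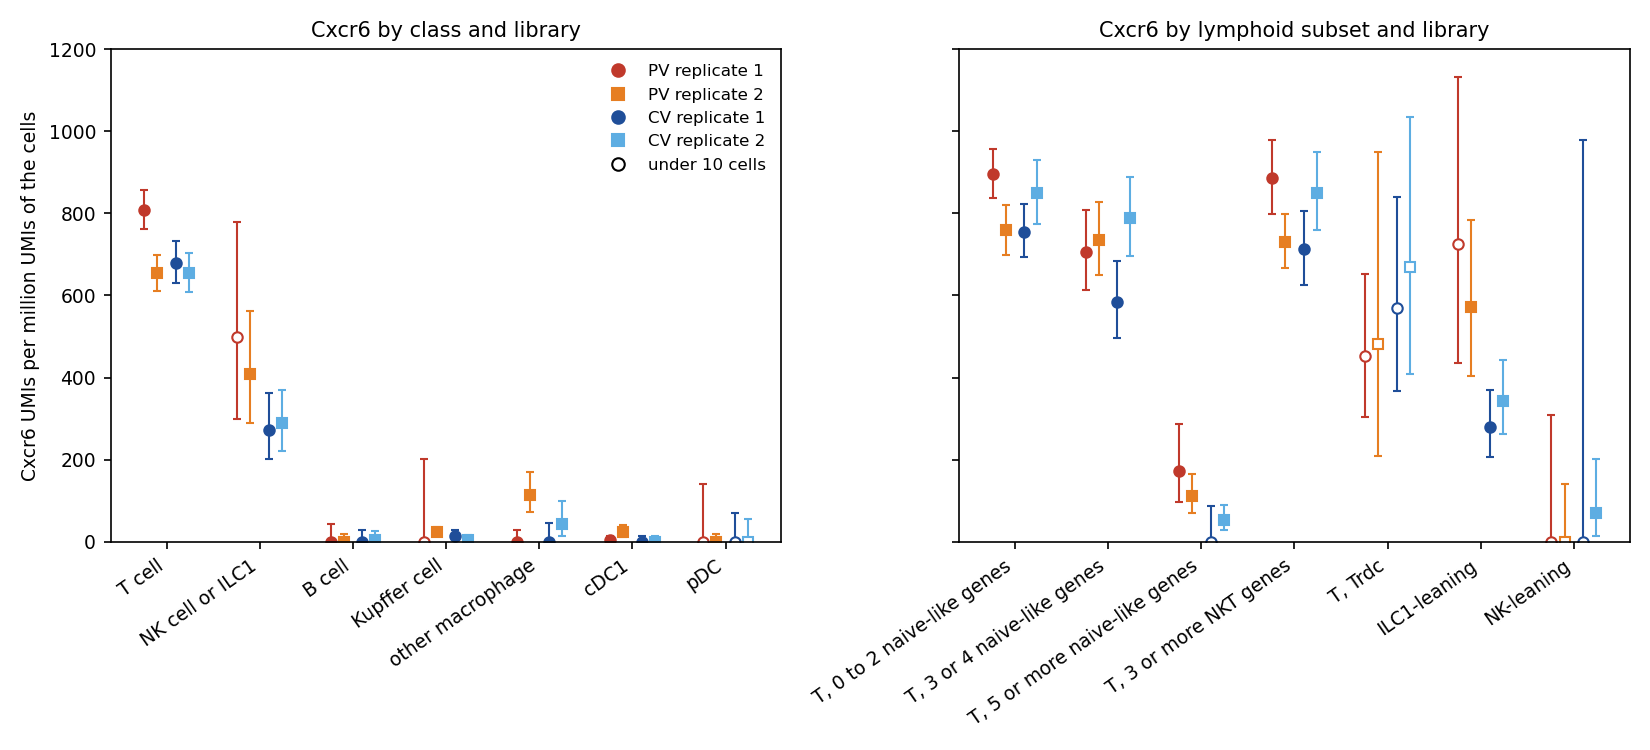
Cxcr6 CPM of the cells (y axis) by class (left) and by lymphoid subset (right), 1 point per library with its exact 95% Poisson interval for counting error; open symbols have under 10 cells. T cells lie at 654 to 809 CPM, T cells with 5 or more naive-like genes at 0 to 173 CPM, ILC1-leaning cells at 279 to 725 CPM and NK-leaning cells at 0 to 69.1 CPM.

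Outside the lymphoid classes Cxcr6 was rare. Macrophages had 57 Cxcr6 UMIs (25.6 CPM), in 14 of 275 cells, and the pooled ratio of T cells over macrophages was 27.5 (21.2 to 36.4). PV replicate 2 held 45 of the 57 UMIs, and without it macrophages had 10.8 CPM and the ratio was 66.9 (38.2 to 130). Of these 14 cells, 11 also had 3 or more T cell markers and held 54 of the 57 UMIs, whereas 1 of the other 261 macrophages had 3 or more. The caller scrublet marked 2, 7, 3 and 2 cells as doublets in the 4 libraries, and no cell was removed for this in the values given.

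Among the genes most like Cxcr6 over the same 31 sums were Skap1 (r = 0.98), an adaptor of the T cell receptor, then Trbc2, Cd3g, Cd226, Lat, Lck and Thy1 (r = 0.96). Trbc2, Cd3g and Lat are among the markers that gated T cells. The likeness follows the classes, as for Cxcl16.

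T cells with a Cxcr6 UMI at 2000 UMIs (480) were next set against those without one (236), as sums per library with the library as a block and without Cxcr6 itself. The line between them is thin: 186 of the 480 had exactly 1 UMI, 146 had 2 and 148 had 3 or more. In edgeR 132 of 2303 genes passed at an adjusted p under 0.05 (5.73%), 28 higher and 104 lower in Cxcr6-positive cells. Of 80 ribosomal protein genes tested, 55 were among the 104, where 4.52% of all genes tested were lower. The count of genes ranged from 1 to 379 over the alternatives run. The ribosomal count fell to between 0 and 24 in 6 of them, among these the fits with no library block (16), without PV replicate 2 (24) and without naive-like T cells (0).

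Genes of recirculating and naive-like T cells were lower. Of the 12 listed, 8 were tested and 6 were lower, with a median log2 fold change of -1.01 while that of all genes tested was near 0, where 4.52% were lower. S1pr1, the receptor by which T cells leave tissue, had 17.6 and 11.8 CPM in Cxcr6-positive cells of the PV libraries and 4.59 and 9.80 CPM in those of the CV libraries. Cxcr6-negative cells had 96.2 and 155 CPM in the PV libraries and 84.9 and 114 CPM in the CV libraries, without overlap. S1pr1 was lower by a log2 fold change of -3.36 ± 0.43 (edgeR adjusted p = 2.08e-12). With few UMIs in positive cells, S1pr1 passed the count filter only through the negative sums. Lower too were Tcf7 (-1.82 ± 0.26) and Lef1 (-1.22 ± 0.22), transcription factors of naive and memory T cells, and Klf2 (-1.47 ± 0.18), which drives S1pr1. The other lower members were Foxp1 (-0.79), a factor of quiescence, and Il7r (-0.77), the receptor chain for interleukin 7.

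Outside that list the lowest gene was Cd8b1, a chain of the CD8 co-receptor. It had 7.04 and 27.6 CPM in Cxcr6-positive cells of the PV libraries and 4.59 and 4.90 CPM in those of the CV libraries, whereas Cxcr6-negative cells had 96.2 and 203 CPM in the PV and 104 and 272 CPM in the CV libraries (log2 fold change -3.88 ± 0.37, edgeR adjusted p = 1.17e-21). Slamf6, a signalling receptor of naive and stem-like T cells (-1.80), Itga4, the alpha4 integrin chain (-1.76), Smc4, a condensin subunit (-1.47), Atp1b3, a sodium pump subunit (-1.45), and Gpcpd1, a phosphodiesterase (-1.24), were lower in all 4 libraries. Cd8b1 and Slamf6, both low in positive cells, passed the count filter only through the negative sums. Itga4 was the 1 called member of the residency list, of which 12 were tested and 0 were higher, at a median of 0.28. Of all genes tested 1.22% were higher.

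The log2 fold changes of the higher genes were smaller. Of the 20 listed genes of the innate-like programme, 15 were tested and 4 were higher, at a median log2 fold change of 0.36, where 1.22% of all genes were higher. Tmem176b, an ion channel gene (1.18 ± 0.26, edgeR adjusted p = 0.00033), had 176 and 205 CPM in positive cells of the PV libraries and 179 and 186 CPM in those of the CV libraries. Negative cells had 57.7 and 67.6 CPM in the PV libraries and 113 and 70.2 CPM in the CV libraries, without overlap. The other 3 were Klrb1c, the NK1.1 receptor (0.70), Id2, a transcription regulator of innate lymphocytes (0.47), and Nkg7, a cytotoxic granule protein (0.37).

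Of the 11 other listed chemokine receptors 3 were tested and 2 were higher, where 1.22% of all genes tested were. Cxcr3, the receptor for CXCL9 and CXCL10, had 275 and 343 CPM in positive cells of the PV libraries and 307 and 270 CPM in those of the CV libraries, whereas negative cells had 163 and 115 CPM in the PV and 170 and 105 CPM in the CV libraries (log2 fold change 1.02 ± 0.21, edgeR adjusted p = 6.4e-05). Ccr2, a receptor for CCL2, was higher by 0.68. Further genes higher in all 4 libraries were Padi2 (1.22), Pcna (1.08), a replication clamp, Tcrg-C4 (1.07) and Trgv2 (0.95), of the gamma receptor chain, Fasl (1.03), a death ligand, Klrc2 (1.03), an NKG2 receptor, Cyth4 (0.99) and Socs2 (0.95). Padi2 kept its call in 4 of the 14 alternatives that tested it and Pcna in 4 of 17. Cd8b1 and S1pr1 kept theirs in all 13 and 15 that tested them. In the main fit, however, both passed the count filter only through the negative sums, as genes low in 1 state can. Of the 18 listed genes of CXCR6 signalling, 12 were tested and 0 passed, where 5.73% of all genes tested did, so this count lies near that share.

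Naive-like cells moved with this comparison, and all 9 genes that define them are on the recirculation list. T cells with 5 or more naive-like genes were 9 of 480 Cxcr6-positive cells (1.88%) and 69 of 236 negative cells (29.2%), and cells with Cd8 but no Cd4 were 12 and 42. In an alternative chosen after seeing the data, those naive-like cells were left out of both sides (471 against 167 cells). Then 1 of 1964 genes passed (0.0509%), Maf, a transcription factor of activated T cells, which was lower in positive cells (-0.86 ± 0.17, edgeR adjusted p = 0.0401), and 0 members of the recirculation, innate-like, other receptor and residency lists passed. Cxcr3 stood at 0.69 and Itga4 at -1.21 in that fit, neither past the threshold. S1pr1, Cd8b1 and Slamf6 fell below its filter and were not tested there. On few UMIs, S1pr1 had 17.7 and 4.07 CPM in positive PV cells and 4.59 and 5.10 CPM in positive CV cells. Negative cells had 69.8 and 32.6 CPM (PV) and 33.3 and 30.3 CPM (CV). Cd8b1 had 3.55 and 12.2 CPM (PV) and 4.59 and 0 CPM (CV) in positive cells. Its negative cells had 93.0 and 54.3 CPM (PV) and 22.2 and 90.9 CPM (CV). Depth was close, at medians of 6211 UMIs in positive and 6280 UMIs in negative cells.

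**Figure D3:**
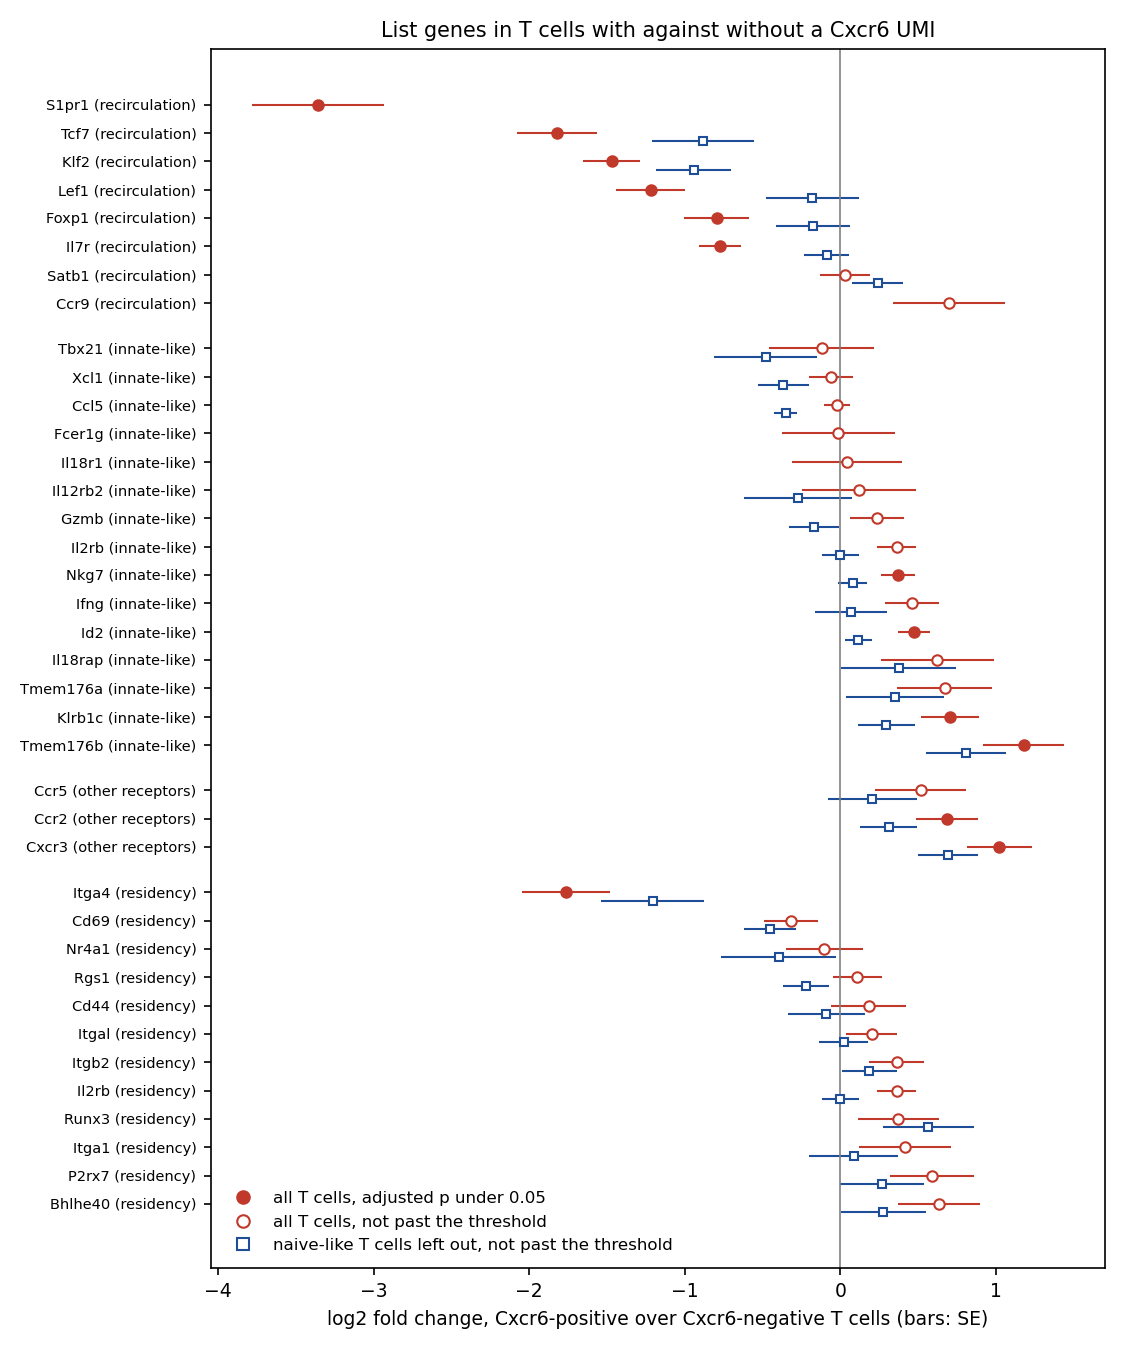
Log2 fold change of Cxcr6-positive over Cxcr6-negative T cells (x axis, bars are SE) for the tested genes of 4 lists (y axis), with all T cells (circles, filled where the edgeR adjusted p is under 0.05) and with naive-like T cells left out (squares). Recirculation genes from S1pr1 (-3.36) to Il7r (-0.77) are filled, and all squares are open.

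The zones were compared last, since the study asks how immune cells differ between the portal and the central zone. Cxcl16 averaged 429 ± 46.0 CPM in macrophages of the PV libraries and 379 ± 20.7 CPM in those of the CV libraries (SD, n = 2 each), a log2 ratio of 0.18. Both PV libraries (461 and 396 CPM) lay above both CV libraries (393 and 364 CPM), and the log2 ratio was larger than the pooled SD of 0.12 on that scale. The makeup differed, however: cells outside the Kupffer gate were 15 of 19 and 25 of 139 macrophages in the PV libraries. In the CV libraries they were 13 of 67 and 15 of 50. Within each gate the libraries of the zones overlapped. Means were 611 (PV) and 549 CPM (CV) outside the Kupffer gate, and 349 and 331 CPM in Kupffer cells. The part of makeup in the difference was not tested. PV replicate 1 held 19 macrophages, below the 20 set for a test, so the values stand as description. With the limit lowered to 15 cells, an alternative chosen after seeing the data, edgeR gave 0.24 ± 0.31 (adjusted p = 0.9997). The share of macrophages with a Cxcl16 UMI at 2000 UMIs was 70.6% and 52.4% in the PV libraries (12 of 17 and 65 of 124) and 61.4% and 47.5% in the CV libraries (35 of 57 and 19 of 40). The mean difference of 7.05 percentage points was smaller than the pooled SD of 11.4 points, and the libraries of the zones overlapped. An exact permutation test of 2 against 2 libraries cannot go below 0.33.

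Cxcr6 in T cells overlapped between the zones. The edgeR log2 fold change of PV over CV was 0.086 ± 0.14 (adjusted p = 0.999), and without PV replicate 1 it was -0.062. The share of T cells with a Cxcr6 UMI was 73.2% and 63.2% in the PV libraries and 67.3% and 64.2% in the CV libraries, a difference of 2.47 points with a pooled SD of 5.25 points. In NK cells and ILC1 both PV libraries (498 and 410 CPM) lay above both CV libraries (273 and 289 CPM), on 8 and 18 against 37 and 43 cells, too few for the test. At 2000 UMIs their share with a UMI was 55.6 ± 7.86% in the PV and 41.3 ± 10.1% in the CV libraries (SD, n = 2 each).

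**Figure D4:**
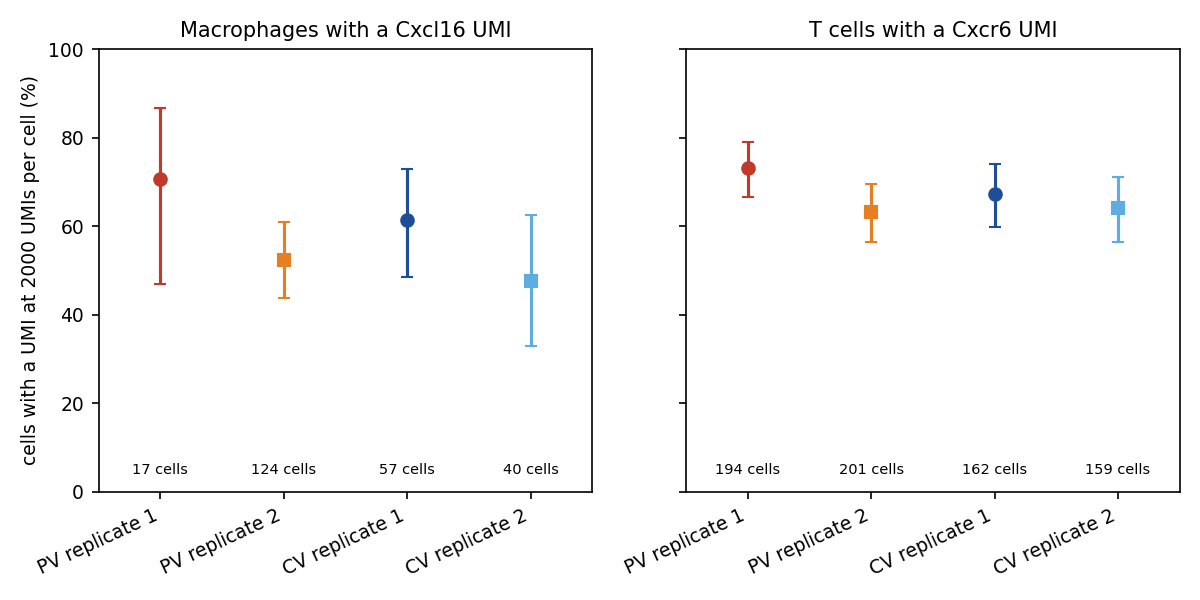
Percentage of cells with a UMI after thinning to 2000 UMIs (y axis), for Cxcl16 in macrophages (left) and Cxcr6 in T cells (right), 1 point per library (x axis) with its 95% Wilson interval, which covers counting error only, and the number of cells. PV and CV libraries overlap in both panels.

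In sums of all cells, where fewer cells of a type and less RNA per cell cannot be told apart, Cxcl16 had 73.6 and 179 CPM in the PV libraries and 126 and 73.7 CPM in the CV libraries (edgeR log2 fold change 0.35 ± 0.44, adjusted p = 0.9999). Without PV replicate 2, which held the most macrophages, it was -0.35. Cxcr6 had 411 and 247 CPM in the PV libraries and 312 and 309 CPM in the CV libraries (0.12 ± 0.31, edgeR adjusted p = 0.9999), and without PV replicate 1, which held the largest share of T cells, it was -0.39. Neither edgeR nor DESeq2 called either gene between zones. In edgeR 0 of 10502 genes passed in all cells (230 at an unadjusted p under 0.05, and 10 of 8703 with DESeq2), and 0 of 7934 in T cells (205, and 1 of 14807 with DESeq2). In macrophages at the lowered limit it was 0 of 5823 (102, and 6 of 14041 with DESeq2), so no listed gene of shedding, signalling, residency or recirculation passed in these edgeR fits. The counts of 0 depended on the libraries and settings. Leaving out 1 library gave 0 to 229 genes in all cells, 15 to 44 in T cells and 0 to 452 in macrophages, each highest without PV replicate 2, which leaves 1 PV library that is assumed to vary like the CV libraries. With no filter on low counts 151 genes passed in all cells and 56 in macrophages, and with the replicate number as a block 4 passed in macrophages.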

How the data were processed

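For each of 4 libraries of CD45+ liver cells the authors deposited a matrix of raw UMI counts, genes by barcodes; per the labels' protocols the libraries were made with 10x Chromium 3′ v3.1 chemistry, which reads the 3′ end of transcripts. The tool and build were Cell Ranger 4.0.0 and mm10, per the submitters' processing notes; annotation and cell calling: not given in the sources used here. Total UMIs were 3063778 and 4373488 in the PV libraries and 2741760 and 2916638 in the CV libraries. Symbols were matched for 32158 of 32285 identifiers. Groups come from the zone label. The members, marker lists and gene lists were chosen with earlier results of these data known. Replicates of a zone differed beyond sampling noise (chi-square per degree of freedom 17.3 in PV and 10.4 in CV libraries).

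Cells were filtered, assigned to a library and gated as the report states. The class with the largest share of its markers won, and ties stayed ungated. No doublet caller was used in the values given; leaving out cells that scrublet marks at a rate of 3% was an alternative. Because cells are no replicates, the counts of a class were added up in each library and the sums tested with edgeR 4.0.16 in R 4.3.3 (quasi-likelihood, TMM, filterByExpr, Benjamini-Hochberg adjustment over all genes tested, threshold 0.05), on 2 residual degrees of freedom between zones and with the library as a block between classes. Zones were tested only with at least 20 cells per library. CPM values are UMIs of a gene per 1000000 UMIs of the same cells. Cells were thinned once at random to 2000 UMIs. Intervals are 95% Wilson (shares) or exact Poisson (CPM), a count of 0 allows 3 counts, and all cover counting error only. Python 3.11.15 with scanpy 1.11.5, numpy 2.4.6 and scipy 1.17.1 was used.

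Alternatives were DESeq2 1.42.0, no filter on low counts, the library or replicate block put in or left out, each library left out, shared barcodes kept in every library, stricter cell limits (500 genes, 5% mitochondrial UMIs), scrublet, a stricter gate (4 markers), Leiden clusters named by the same markers, and thinning to 1000 or 3000 UMIs or not at all. Leaving out mature dendritic cells was added after seeing the data. Likeness used the 8 genes with the highest r, over sums of at least 10 cells, among genes of at least 20 CPM in a class. For each of Cxcl16 and Cxcr6, 1 of these 8 genes is not reported here. Between Cxcr6 states up to 10 genes per direction were named, by size of the change, among those past the test with the same direction in all 4 libraries; list members and class markers could be named too. Maf and the overlapping genes Fyco1 and Zmynd15 were named outside this rule.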

Additional observations from a re-analysis of the deposited data

How the results depend on the processing

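Cxcl16 in macrophages and in cDC over T cells, and Cxcr6 in NK cells and ILC1 against T cells, kept direction and call in all 12 alternatives each; leaving out 1 library gave log2 fold changes of 7.87 to 8.66, 7.30 to 7.83 and -1.37 to -1.17. For macrophages over cDC the range was 0.62 to 1.13. The call was lost with DESeq2 (0.89), without the library block (0.77) and with Leiden classes (0.66). It was also lost without PV replicate 1 (0.62) and without CV replicate 2 (0.64). It held at 1.47 without mature dendritic cells. The cause was not tested. For other macrophages over Kupffer cells the range was 0.85 to 1.13. That call was lost at 0.93 with no filter and at 0.85 without PV replicate 2.

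Between zones, leaving out 1 library turned the sign of Cxcr6 in T cells (-0.062 to 0.22; -0.062 without PV replicate 1), of Cxcl16 in all cells (-0.35 to 0.79; -0.35 without PV replicate 2 and -0.0021 without CV replicate 2) and of Cxcr6 in all cells (-0.39 to 0.48; -0.39 without PV replicate 1), with no call in any fit. Cxcl16 in macrophages ranged from 0.065 to 0.28, its share from -2.03 to 16.1 points and the share of T cells with Cxcr6 from -2.53 to 7.48 points.

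The 132 genes called between Cxcr6 states depended on the settings. The count was 51 with DESeq2, 80 with no filter and 51 without the library block. It was 34 when thinned to 1000 UMIs and 379 when not thinned. With 1 library left out it was 49 to 122 (49 without PV replicate 2). Among alternatives chosen after seeing the data, 3 further thinning draws gave 132, 55 and 119 calls, of which 86, 45 and 82 were among the 132. Leaving out naive-like T cells, also chosen after seeing the data, gave 1, on fewer cells and genes. The causes were not tested. The recirculation list had 0 to 10 members called over the alternatives, the innate-like list 0 to 10 and the other receptors 0 to 2. Pcna turned to -0.14 when thinned to 3000 UMIs and to -0.18 in another draw, and Cyth4 to -0.23 when thinned to 1000.

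The labels number the libraries 1 and 2 in each zone. Same-numbered libraries deviated together with r of 0.033 in all cells (10502 genes), 0.101 in T cells (7934 genes) and 0.011 in macrophages (5823 genes). With 2 pairs this does not settle whether a number marks a shared mouse or day, and the numbers were not used as a pairing. With that replicate block the zone log2 fold changes were 0.079 for Cxcr6 in T cells, 0.29 for Cxcl16 and 0.062 for Cxcr6 in all cells, and 0.25 for Cxcl16 in macrophages at the 15-cell limit, with no call of either gene changed. Depth limits the classes of few cells: mature dendritic cells (9 cells), NK-leaning cells (20) and endothelial cells (16).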
